A study of Mus musculus with 188 samples.

Results

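This section describes 10 genes of fatty acid synthesis, triglyceride assembly and lipolysis (Fasn, Acaca, Acly, Scd1, Elovl6, Me1, Thrsp, Dgat2, Pnpla2 and Lipe) among the 11725 genes named on the arrays. The probe set with the highest mean over all arrays stood for each gene. The genes were taken by name for their place in the pathway, with earlier results of these data known. Aortas of untreated male mice, 16 weeks old and on a chow diet, had been profiled on Affymetrix HT_MG-430A arrays. The 94 strains were all labelled wild-type and belong to a panel used for genetic association. They comprised 28 AXB and BXA strains from A/J and C57BL/6J (59 arrays), 28 BXD strains from DBA/2J and C57BL/6J (53 arrays), 10 BXH strains from C3H/HeJ and C57BL/6J (21 arrays) and 28 inbred strains that include the 4 parents (55 arrays). BXD29-Tlr4<lps-2J>/J and BXD24/TyJ-Cep290<rd16>/J carry an allele of the gene in their names. Most strains (79) had 2 arrays, 9 had 1, 3 had 3 and 3 had 4. The labels do not say that arrays of a strain came from separate mice, so p-values describe the spread between arrays alone, and that spread may be technical.

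Fat cells make fatty acids from citrate: the carbon is released as acetyl-CoA, carboxylated to malonyl-CoA, polymerised to palmitate with reducing power from NADPH, and then elongated and desaturated. The products are stored as triglyceride in lipid droplets, from which lipases release them again when energy or heat is needed. The aorta is wrapped in perivascular fat, which in mice is brown around the thoracic segment, and in fat cells the synthetic genes are known targets of SREBP-1c, ChREBP and liver X receptors.

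Stretches of 250 bases before the start site are shown for genes of the synthetic and the lipolytic arm that held matches to motifs known from lipogenic promoters. RefSeq start sites (GRCm38.p6) were matched for 8 of the 10 genes, with 10 promoters. Scd1, on chromosome 19, and Dgat2, on chromosome 7, were named only. Capitals mark matches on either strand to the CCAAT box (CCAAT, or ATTGG on the other strand), the GC box (GGGCGG or CCGCCC) or the E-box (CACGTG). All 4 windows lie on the minus strand and are written 5′ to 3′ in the direction of transcription. They are Fasn at chr11:120824548-120824797, Acly at chr11:100528001-100528250, Thrsp at chr7:97417551-97417800 and the first Lipe promoter at chr7:25395988-25396237.
Fasn: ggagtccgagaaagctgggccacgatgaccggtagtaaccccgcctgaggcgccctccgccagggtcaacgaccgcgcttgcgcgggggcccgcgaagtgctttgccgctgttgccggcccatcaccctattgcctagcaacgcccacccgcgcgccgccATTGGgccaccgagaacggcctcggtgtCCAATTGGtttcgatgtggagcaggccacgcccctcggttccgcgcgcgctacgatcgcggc
Acly: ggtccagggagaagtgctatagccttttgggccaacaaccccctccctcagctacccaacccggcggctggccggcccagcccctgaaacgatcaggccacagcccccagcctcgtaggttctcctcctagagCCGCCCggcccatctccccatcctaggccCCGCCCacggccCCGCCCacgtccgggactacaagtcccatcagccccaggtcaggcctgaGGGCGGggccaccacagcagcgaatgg
Thrsp: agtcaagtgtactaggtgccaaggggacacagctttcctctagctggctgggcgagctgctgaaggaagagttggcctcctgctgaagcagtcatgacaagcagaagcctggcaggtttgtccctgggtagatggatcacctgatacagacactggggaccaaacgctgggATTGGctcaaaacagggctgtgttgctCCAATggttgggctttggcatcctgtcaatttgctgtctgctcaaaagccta
Lipe: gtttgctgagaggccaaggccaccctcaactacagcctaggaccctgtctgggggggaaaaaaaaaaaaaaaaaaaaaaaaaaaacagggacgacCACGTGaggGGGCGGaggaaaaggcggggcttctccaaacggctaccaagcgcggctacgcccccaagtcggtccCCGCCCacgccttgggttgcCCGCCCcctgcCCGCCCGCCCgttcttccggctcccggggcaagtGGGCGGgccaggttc

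CCAAT boxes stood in 3 of the 10 windows, against 33.8% of all 32851 RefSeq promoter windows of this length. These belong to 3 of the 8 genes (Fasn 3 times, Thrsp 2 times and the second Me1 promoter once). In Fasn the matches at -62 and -59 relative to the start site share bases, and in Thrsp the matches lie at -79 and -52. GC boxes stood in 4 of the 10 windows, of 4 genes (Acly 4 times, Me1 3 times, Pnpla2 2 times and Lipe 6 times), against 32.7% of all windows. The matches of Lipe at -49 and -45 share bases. The E-box was found in 1 of the 10 windows, in Lipe, against 6.02% of all windows. The SREBP element TCACNCCAC was in 0 of the 10 windows and in 1.05% of all. A match is a description of letters, and its absence says only that these letters are not in this window.

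The RNA held smooth muscle and fat together. Over arrays, the smooth muscle actin Acta2 lay between 11.05 and 13.13 on the log2 scale, the fat cell hormone Adipoq between 11.02 and 12.53 and the brown fat uncoupling protein Ucp1 between 9.75 and 13.18. Defining markers of other tissues came up in some arrays: the T cell gene Cd3d ran from 3.22 to 11.41, the oesophageal keratin Krt4 from 2.76 to 12.89 and the muscle kinase Ckm from 4.20 to 12.92. The liver gene Alb ran from 2.81 to 12.74. The mean centred level of liver genes, the hepatocyte score, was 7.09 on the second BXA14/PgnJ array (Acly 11.52, Fasn 12.23). On the first it was 0.04 (9.07 and 11.39), and on the second C57BL/6J array 3.63. Within strains it correlated with the 10 genes at r between 0.007 (Elovl6) and 0.353 (Fasn), and its part in their levels was not tested. On 72 arrays the mean centred level of thymocyte or squamous epithelium genes was more than 1 above the average. Across strain means the thymocyte score correlated with the 10 genes at r between -0.28 and 0.01, and the squamous score between -0.24 and 0.04. For the hepatocyte score r lay between -0.18 (Scd1) and 0.20 (Lipe). Array medians lay between 4.55 and 4.88. Each array's mean correlation with others of its strain was 0.813 to 0.990 (median 0.973), lowest for C57L/J.

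The levels of all 10 genes differed between strains. In limma's moderated F test over 84 strains with 2 or more arrays (177 arrays), 10 of 10 genes passed at a Benjamini-Hochberg adjusted p below 0.05, against 46.5% of all 22327 probe sets tested. Their median intraclass correlation (ICC, the share of a gene's variance that lies between strains) was 0.528, against 0.182 over all probe sets. In whole-tissue RNA, fewer cells of a type and less RNA per cell cannot be told apart. The arrays also carry numbers that the labels do not explain, and in most strains these are consecutive. Differences between strains, and the ICC, therefore cannot be told apart from differences that follow the array numbers. Synthetic and NADPH genes had ICCs of 0.637 (Acly; adjusted p = 2.92e-11), 0.580 (Me1), 0.574 (Fasn), 0.537 (Thrsp), 0.519 (Scd1), 0.449 (Elovl6) and 0.357 (Acaca; adjusted p = 0.000665). Dgat2 had 0.561, and the lipases had 0.413 (Lipe) and 0.328 (Pnpla2; adjusted p = 0.00173). Acaca and Pnpla2 were also the dimmest, with mean levels at the 49.4 and 57.8 percentiles of all probe sets. When those 72 arrays were left out, 78 arrays of 37 replicated strains remained and 9 of 10 passed, and Acaca did not (adjusted p = 0.0545).

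**Figure D1:**
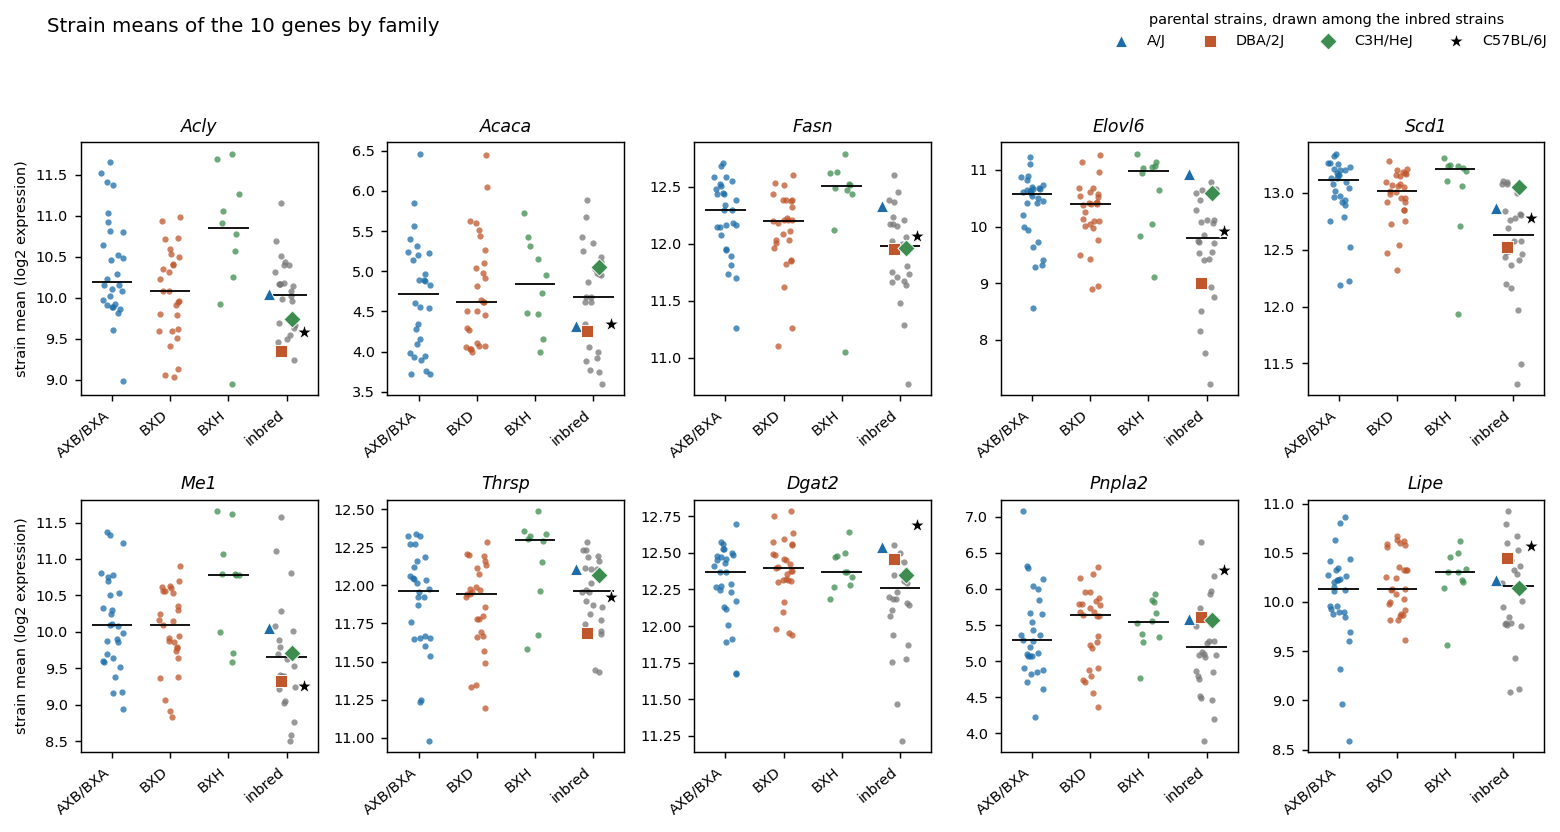
Strain means (log2 expression) of each gene, 1 point per strain, for the AXB/BXA, BXD, BXH and inbred strains; horizontal lines are medians over strains and the larger symbols are the 4 parental strains. Fasn lies between 10.77 and 12.79 and Elovl6 between 7.23 and 11.28, and the lowest strains are single points well under their group's median.

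Acly, which splits citrate into acetyl-CoA, had strain means of 8.95 (BXH19/TyJ) to 11.76 (BXH6/TyJ), with a median of 10.15. BXH19/TyJ gave 8.84 and 9.06 on its 2 arrays, and BXH6/TyJ gave 11.59 and 11.93. Both strains come from the same cross, and as the lowest and highest of 94 means they lie apart by selection. Me1, the malic enzyme that supplies NADPH, spanned 8.88-fold between strains, from 8.50 in KK/HlJ (8.24 and 8.77) to 11.66 in BXH10/TyJ, which had 1 array. Among strains with 2 arrays BXH6/TyJ (11.40 and 11.84) and LG/J (11.57 and 11.59) were highest in Me1.

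Fasn, the synthase that builds palmitate, ran from 10.77 in NOD/ShiLtJ to 12.79 in BXH6/TyJ (4.05-fold). The arrays of BXH6/TyJ were close (12.78 and 12.80). Those of NOD/ShiLtJ were not, at 9.95 and 11.59, and the array with 9.95 also had the lowest brown fat score of all arrays (-2.01, against -0.11 on its partner). The next lowest strain, BXH19/TyJ, gave 11.06 and 11.04. Acaca, which makes malonyl-CoA, ran from 3.60 in I/LnJ (1 array) to 6.46 in BXA16/PgnJ. The 3 arrays of BXA16/PgnJ read 7.25, 7.25 and 4.88, so its high mean rests on 2 of 3 arrays. The within-strain SD of Acaca was 0.615, wider than its SD among strains (0.458).

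Elovl6, which elongates palmitate, had the widest range of the 10, 16.6-fold, from 7.23 in KK/HlJ to 11.28 in BXH10/TyJ. KK/HlJ was low on both arrays (7.29 and 7.16). C57L/J, the next lowest, gave 5.47 and 10.06, and its first array was low in Scd1 too (11.22 against 13.10) and in the adipocyte and brown adipocyte scores (-1.01 and -1.30, against -0.01 and -0.18). Scd1, the desaturase that makes oleate, ran from 11.32 in KK/HlJ (11.25 and 11.40) to 13.35 in AXB8/PgnJ (13.29 and 13.40). Its highest array, at 13.43, lies near the highest value of the whole table, 13.50. A second, dimmer Scd1 probe set ran from 6.64 to 11.58 over the same strains, with strain means correlated at r = 0.909 with the brightest. Thrsp, the Spot 14 protein that promotes lipogenesis, had the narrowest range (2.84-fold), from 10.98 in AXB1/PgnJ to 12.49 in BXH6/TyJ (12.37 and 12.60).

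High synthesis recurred in the same strains. BXH10/TyJ, with 1 array, was among the 10 highest of 94 strains in all 7 synthetic genes, and BXH6/TyJ, BXH22/KccJ and AXB8/PgnJ in 6 of 7. None of these 4 strains was among the 10 highest in Dgat2, Pnpla2 or Lipe. BXD11/TyJ (1 array), next with 5 of 7, was among the 10 highest in Dgat2. BXA16/PgnJ and AXB19a/PgnJ had 4 each, and BXA16/PgnJ was among the 10 highest in Lipe. AXB19a/PgnJ was not among the 10 highest in Dgat2, Pnpla2 or Lipe. KK/HlJ was among the 10 lowest in 5 synthetic genes while ranking 89 of 94 in Lipe (10.94 and 10.40). Its brown fat scores were -0.31 and -1.13, and their part in these levels was not tested. BXD20/TyJ, BXD22/TyJ and NOD/ShiLtJ were among the 10 lowest in 4 synthetic genes each. The array numbers of BXH10/TyJ, BXH6/TyJ, BXH22/KccJ and AXB8/PgnJ were 1073 to 1154, and that of BXD11/TyJ was 960. Those of KK/HlJ, BXD20/TyJ, BXD22/TyJ and NOD/ShiLtJ were 943 to 989. The part of the numbers in these ranks was not tested. Since the 10 genes selected which strains are named, the counts are descriptions.

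Dgat2, which adds the last fatty acid of a triglyceride, ran from 11.22 in C58/J (11.16 and 11.27) to 12.78 in BXD29-Tlr4<lps-2J>/J (12.82 and 12.75), 2.97-fold. RIIIS/J was next lowest (11.44 and 11.49). Pnpla2, the adipose triglyceride lipase that starts lipolysis, ran from 3.90 in RIIIS/J (3.64 and 4.16) to 7.07 in AXB6/PgnJ. The arrays of AXB6/PgnJ differed more than most strains, at 6.38 and 7.76. Lipe, the hormone-sensitive lipase of the next step, ran from 8.59 in AXB1/PgnJ (8.50 and 8.68) to 10.92 in BTBR T<+> tf/J (11.12 and 10.72). Thus AXB1/PgnJ was at the bottom of Lipe and Thrsp and among the 10 lowest in Dgat2, whereas RIIIS/J was among the 10 lowest in Dgat2, Pnpla2 and Lipe. RIIIS/J also had the highest thymocyte scores of all strains (4.90 and 5.14) and low endothelial scores (-1.29 and -1.43). Its mean adipocyte score was the lowest of all strains (-0.77), and its mean brown adipocyte score was -0.68. The part of these in its low lipase levels was not tested. AXB1/PgnJ had a mean thymocyte score of -1.01, a mean adipocyte score of -0.48, and brown fat scores of -0.94 and -0.86. C58/J, lowest in Dgat2, had a mean adipocyte score of -0.05 and a mean brown adipocyte score of -0.72.

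Neighbours among 94 ordered means lie close by construction. Of 93 neighbouring pairs in each order, the gap exceeded the within-strain SD in 1 pair for Scd1 (0.443 between NOD/ShiLtJ and BXH19/TyJ), in 2 for Dgat2 (up to 0.25, between C58/J and RIIIS/J) and in 0 for the other 8 genes. Neighbours closer than that SD cannot be put in order from these arrays. The SD is that of single arrays, so a wider gap does not by itself settle an order either. Of the 10 genes, 6 had a second probe set (Acly, Scd1, Elovl6, Me1, Thrsp and Dgat2), whose strain means correlated with those of the brightest at r = 0.909 to 0.985. All of these second probe sets also passed the F test.

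The next comparison asked whether levels still differed among recombinant inbred strains of the same 2 parents. Within BXD (22 strains, 46 arrays), 8 of 10 genes passed the F test in limma, against 15.1% of all probe sets. Thrsp (ICC 0.778; adjusted p = 0.000161) and Me1 (0.761; adjusted p = 8.22e-05) had the highest values, while Pnpla2 (0.336; adjusted p = 0.0936) and Lipe (0.314; adjusted p = 0.124) did not pass. Within AXB/BXA (27 strains, 58 arrays), 4 passed, against 3.81%: Fasn (adjusted p = 0.00451), Acly (0.0138), Thrsp (0.0354) and Me1 (0.0473). Within BXH (9 strains, 20 arrays), 3 passed, against 1.26%: Acly (ICC 0.915; adjusted p = 0.000318), Fasn (0.891) and Scd1 (0.843). Lipe, Dgat2 and Pnpla2 had ICCs of 0.02, -0.11 and -0.09 in BXH, with 95% intervals reaching 0.607, 0.509 and 0.529. Whether an ICC differs between families was not tested.

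The BXH values of Fasn and Scd1 rested on 1 strain. BXH19/TyJ gave 11.06 and 11.04 in Fasn, whereas the other 19 BXH arrays lay at or above 11.82, and in Scd1 it gave 11.81 and 12.05. Without BXH19/TyJ, Acly still passed (ICC 0.822; adjusted p = 0.0218), while Fasn (0.378; adjusted p = 0.559) and Scd1 (0.370; adjusted p = 0.564) did not, so 1 of 10 genes passed over 8 strains. When arrays with high thymocyte or squamous scores were left out, 0 genes passed in AXB/BXA (8 strains) and 3 in BXD (11 strains). With low against high array number as a covariate, 2 passed in AXB/BXA. The shares of all probe sets that passed in these settings are not given here. The falls therefore cannot be read as particular to the 10 genes.

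**Figure D2:**
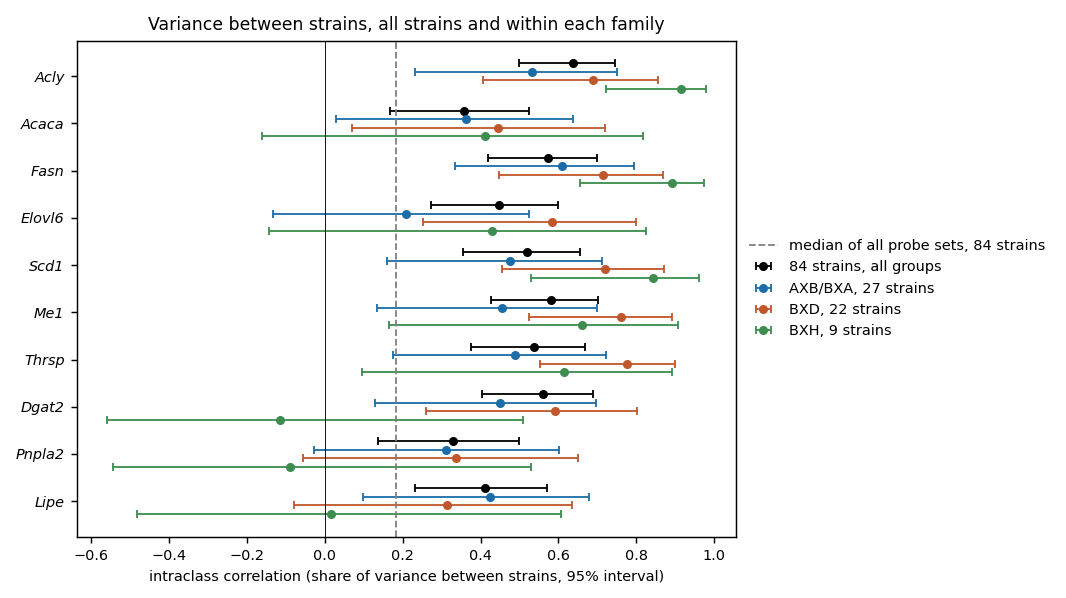
Intraclass correlation of each gene with its 95% interval (horizontal axis, share of variance between strains) over 84 strains of all groups and within each family; the dashed line is the median of all probe sets, 0.182. The BXH intervals of Dgat2, Pnpla2 and Lipe are the widest drawn and span 0.

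Parental strains were compared next, since the families recombine their alleles. Each of A/J, DBA/2J and C3H/HeJ had 2 arrays and C57BL/6J had 3, and all 3 contrasts share the C57BL/6J arrays. In limma, 0 of 10 genes passed in each contrast, and 0 had an unadjusted p below 0.05. Over all probe sets 0.645% passed for A/J, 0.524% for DBA/2J and 1.25% for C3H/HeJ. Elovl6 read 10.90 and 10.96 in A/J, 8.12 and 9.90 in DBA/2J, 10.63 and 10.55 in C3H/HeJ, and 9.50, 9.86 and 10.42 in C57BL/6J. A/J and C3H/HeJ were thus above every C57BL/6J array, which over 2 arrays against 3 is a description only. Neither contrast passed in limma for Elovl6 (adjusted p = 0.637 and 0.682). The A/J difference was 1.00 on the log2 scale (95% interval -0.24 to 2.24), and that of C3H/HeJ was 0.66 (-0.59 to 1.90). With the adipocyte and brown adipocyte scores as covariates, the A/J difference in Elovl6 passed (1.45; adjusted p = 0.0178).

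Me1 was 9.97 and 10.12 in A/J, against 9.23, 8.94 and 9.60 in C57BL/6J, a difference of 0.79 (-0.10 to 1.69). DBA/2J, with 9.08 and 9.57, overlapped C57BL/6J. Pnpla2 lay lower in all 3 strains than in C57BL/6J by the mean, with differences of -0.68 (-1.73 to 0.36), -0.65 (-1.69 to 0.40) and -0.69 (-1.73 to 0.36). The C57BL/6J arrays themselves read 6.59, 6.84 and 5.35 in Pnpla2 (array medians 4.65, 4.55 and 4.73), and the third overlapped the other strains. Dgat2 was likewise highest on the first arrays of C57BL/6J, with 12.79, 12.88 and 12.40 in C57BL/6J and 12.46 and 12.24 in C3H/HeJ, a difference of -0.34 (-0.71 to 0.03). Array 3 of C57BL/6J has the number 1115, far from the numbers of the other parental arrays (925 to 940). Fasn differed by 0.27 (A/J), -0.11 (DBA/2J) and -0.11 (C3H/HeJ), each with an interval that includes 0.

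**Figure D3:**
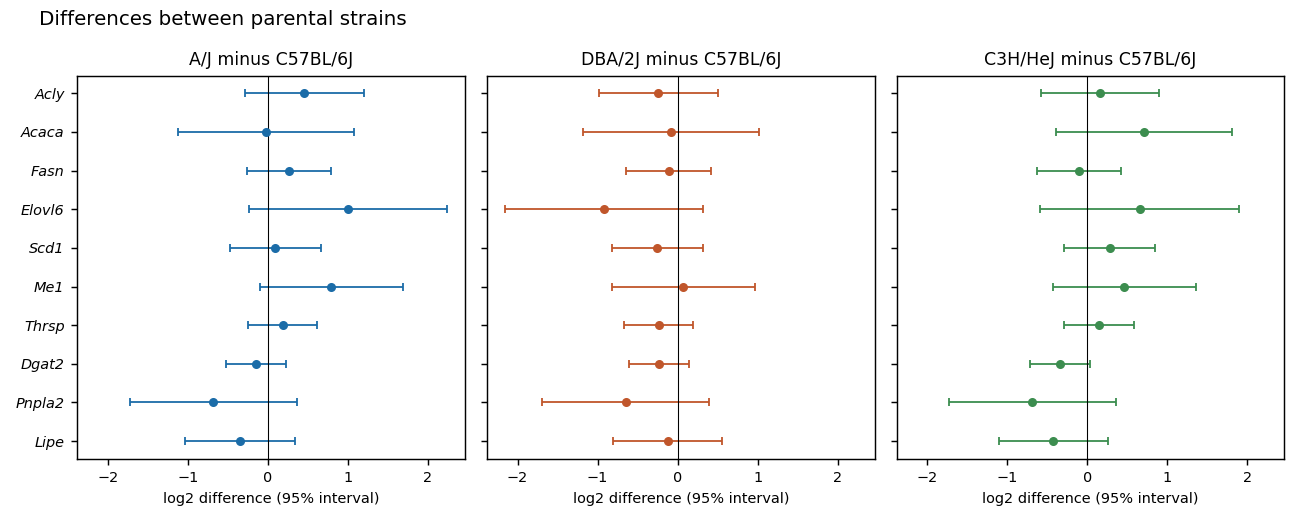
Log2 difference of A/J, DBA/2J and C3H/HeJ from C57BL/6J for each gene with its 95% interval (limma; 2 arrays against 3). Every interval includes 0, and those of Elovl6, Acaca and Pnpla2 are the widest.

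Means of recombinant inbred strains were often above or below the means of both parents. Of 27 BXD strains, 24 had a higher Me1 mean than both DBA/2J (9.32) and C57BL/6J (9.26), and 22 were above both in each of Acly, Scd1 and Elovl6. Of 10 BXH strains, 9 were above both parents in Fasn and in Acly. Of 28 AXB/BXA strains, 23 were above both in Scd1 and 18 in Acly. Other synthetic genes did not share this: in AXB/BXA 20 of 28 strains lay between the parents in Elovl6, and 13 were below both and 8 above both in Thrsp. For the storage and lipolysis genes, in AXB/BXA 25 of 28 strains were below both parents in Dgat2, 19 in Pnpla2 and 16 in Lipe, and in BXD 20 of 27 were below both in Lipe, 18 in Dgat2 and 11 in Pnpla2, where 15 lay between. In BXH 4 of 10 were below both in Dgat2, 6 in Pnpla2 and 2 in Lipe, and the others lay between, except 1 above both in Lipe. Parental means rest on 2 or 3 arrays each, and no test was made of these counts.

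Array numbers moved with this pattern. All parental arrays but 1 carry numbers up to 1038, as do 92 arrays in all, and the mean of those 92 was lower than that of the 96 numbered from 1067 in Elovl6 (9.84 against 10.40), Me1 (9.75 against 10.23), Scd1 (12.73 against 13.01) and Fasn (11.99 against 12.25). Dgat2 hardly differed by number (12.29 against 12.32). Among the 10 BXD strains numbered up to 1038, set against the 2 C57BL/6J arrays numbered likewise, 8 were above both parents in Acly, 7 in Me1, 7 in Scd1 and 4 in Fasn, and 8 were below both in Lipe. Among 10 such AXB/BXA strains 8 were below both parents in Dgat2 and 7 above both in Scd1, but 5 were above both in Acly, 3 in Fasn, 3 in Thrsp and 1 in Elovl6, while 5 were below both in Fasn, 6 in Thrsp and 4 in Elovl6. The labels do not say what the numbers stand for, and their part in the result was not tested.

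Between families no gene passed. On 1 mean per strain, 0 of 10 genes passed in limma between AXB/BXA and BXD (against 2.22% of all probe sets), between AXB/BXA and BXH (0.322%) or between BXD and BXH (0.184%). Unadjusted p-values below 0.05 numbered 0, 2 and 3. Acly averaged 10.38 ± 0.63 in AXB/BXA (SD, n = 28 strains), 10.05 ± 0.56 in BXD (n = 27) and 10.72 ± 0.85 in BXH (n = 10). The BXD to BXH difference in Acly was -0.67 (adjusted p = 0.445 in limma), and that in Me1 was -0.66 (adjusted p = 0.443).

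Across strains the 10 genes fell into groups that varied together. Over 93 strain means, all 21 pairs of the 7 synthetic genes were positively correlated after adjustment for the 45 pairs tested (permutation test, two-sided, 100000 resamples), with a median r of 0.550 and a range of 0.288 to 0.792. All 3 pairs of Dgat2, Pnpla2 and Lipe were too (0.477 to 0.707). Of 21 pairs that join a gene of each group, 5 passed, with a median r of 0.145. These 5 were Thrsp with Lipe (0.587), Dgat2 (0.511) and Pnpla2 (0.238), and Fasn with Lipe (0.376) and Dgat2 (0.319). In all, 29 of 45 pairs passed.

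Acly and Me1 were the closest pair (r = 0.792, rho = 0.779; permutation p = 1e-05 for r, the smallest these resamples can give; adjusted p = 2.5e-05). Their r was 0.763 without the 2 strains farthest from the Acly median, 0.876, 0.789, 0.923 and 0.588 within AXB/BXA, BXD, BXH and the inbred strains, and 0.775 and 0.779 among the 44 strains numbered up to 1038 and the 44 from 1067. Scd1 with Elovl6 gave r = 0.761 (rho = 0.752; 0.708 without the 2 farthest strains; 0.756 and 0.673 by array number). Dgat2 with Lipe gave r = 0.707 (rho = 0.708; 0.678 without the 2 farthest; 0.746 and 0.670 by array number). Scd1 with Lipe gave r = 0.01 (rho = -0.03). Of the 21 synthetic pairs, 20 had a positive r in each of the 4 groups of strains. The exception, Elovl6 with Thrsp, was -0.01 among the inbred strains. Without C57L/J and NOD/ShiLtJ every pair that had passed did so again.

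**Figure D4:**
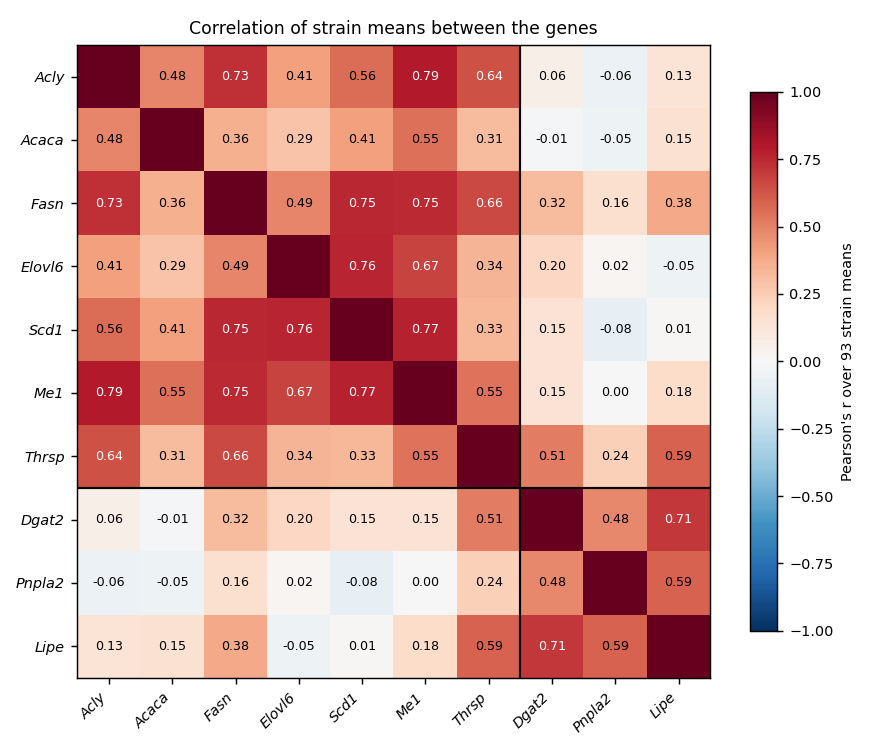
Pearson's r between strain means of each pair of genes over 93 strains, as colour and number. The 7 synthetic genes at upper left are all positive with each other (0.29 to 0.79), the block of Dgat2, Pnpla2 and Lipe at lower right is positive (0.48 to 0.71), and Thrsp has the highest values between the blocks.

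**Figure D5:**
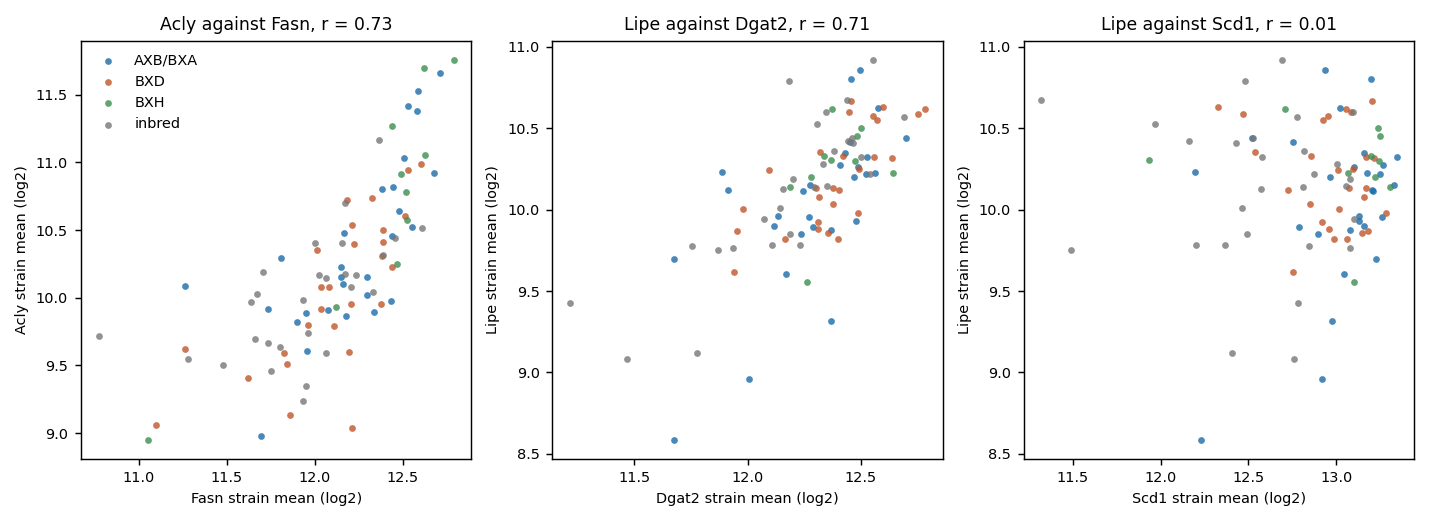
Strain means (log2) of Acly against Fasn, Lipe against Dgat2 and Lipe against Scd1, 1 point per strain, coloured by family. Acly rises with Fasn (r = 0.73) and Lipe with Dgat2 (r = 0.71), and Lipe shows no slope against Scd1 (r = 0.01).

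Fat marker levels moved with some of the genes. The genes of a pair were read on the same arrays, so differences between arrays in tissue content enter both. Over strain means, the brown adipocyte score, a mean of 7 measured marker genes, correlated with Elovl6 at r = 0.749, with Dgat2 at 0.539 and with Scd1 at 0.510, but with Acly at 0.105. The adipocyte score (8 genes) was highest with Lipe (0.400), and the endothelial score (9 genes) with Pnpla2 (0.470) and Lipe (0.450). After the 2 fat scores were regressed out, 29 pairs passed again, 19 of the 21 synthetic pairs among them, with a median r of 0.556. Scd1 with Thrsp (adjusted p = 0.0724) and Elovl6 with Thrsp (0.236) no longer passed. Between the groups 7 pairs then passed, and 4 of these were negative: Elovl6 with Lipe (-0.50), Pnpla2 (-0.39) and Dgat2 (-0.36), and Scd1 with Pnpla2 (-0.32).

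Deviations of single arrays from their strain mean (177 arrays) were grouped in part otherwise. Pnpla2 and Lipe deviated together at r = 0.826, Elovl6 and Me1 at 0.779, Scd1 and Elovl6 at 0.775, and Acly and Thrsp at 0.611. Fasn was closest to Dgat2 (0.549) and had 0.403 with Lipe and 0.381 with Pnpla2, against 0.243 with Elovl6 and 0.145 with Acaca. Thrsp had 0.594 with Dgat2 and 0.152 with Scd1. Lipe and Pnpla2 also moved with the endothelial score (0.705 and 0.609), and Elovl6 with the brown adipocyte (0.724) and adipocyte scores (0.677). AXB23/PgnJ is an example. Its arrays gave 10.04 and 11.22 in Lipe, 5.52 and 7.05 in Pnpla2, and 11.15 and 8.72 in Elovl6, so the array with more lipase RNA had less Elovl6. That array also had lower adipocyte (-0.64 against 0.08) and brown adipocyte scores (-0.43 against 0.21) and a lower median (4.56 against 4.75), and the arrays correlated at 0.861. The part of these in the difference was not tested. In BXA8/PgnJ the array with more Lipe (11.40 against 10.32) likewise had less Elovl6 (8.66 against 10.80) and a lower median (4.57 against 4.68). AXB6/PgnJ was alike, with Lipe 11.23 against 9.60, Elovl6 9.44 against 10.99 and medians of 4.62 against 4.71. In BXA25/PgnJ Lipe was 10.82 at a median of 4.59 and 10.06 at 4.77. In BXD22/TyJ it was 11.16 at 4.67 and 10.09 at 4.81. The order was reversed in BXD13/TyJ (9.63 at 4.77 and 10.01 at 4.79) and, by less, in BXD20/TyJ (10.08 at 4.70 and 10.17 at 4.79). These strains are examples, and the strains of either order were not counted. A relation of the 10 genes to array medians was not tested.

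Of 50 relations tested together, 18 passed: 7 of 30 with the regulators Nr1h3, Mlxipl and Pparg, and 11 of 20 with the fat markers Ucp1 and Adipoq. Nr1h3, the liver X receptor alpha, varied with the storage and lipolysis genes: r was 0.815 with Lipe (rho = 0.822), 0.71 with Pnpla2 (rho = 0.666) and 0.617 with Dgat2 (rho = 0.630), each at an adjusted p of 0.0001, from the smallest permutation p that the resamples can give. Without the 2 farthest strains these were 0.813, 0.668 and 0.561, and for low and high array numbers they were 0.845 and 0.743, 0.730 and 0.642, and 0.640 and 0.627. With the synthetic genes Nr1h3 passed for Thrsp (0.312) and not for Acly (-0.10; adjusted p = 0.499), Fasn (0.181; adjusted p = 0.156) or Scd1 (-0.16; adjusted p = 0.214). Nr1h3 itself was lowest in RIIIS/J (5.19) and highest in BXA8/PgnJ (7.91). RIIIS/J also had the lowest mean adipocyte score of all strains (-0.77). The relations with regulators and fat markers were not computed again with the fat scores regressed out, and the part of these scores in them was not tested.

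Mlxipl, which encodes ChREBP, passed with Elovl6 (0.465; rho = 0.478; 0.443 and 0.363 by array number) and Dgat2 (0.302; rho = 0.216 with an adjusted p of 0.112). Pparg, the master regulator of fat cells, passed with Elovl6 (0.321). Ucp1 passed with 7 of the 10 genes, most closely with Elovl6 (0.472), Dgat2 (0.452) and Scd1 (0.446). Its relation to Fasn (0.373) had a rho of 0.190 and rested on a few strains: it was 0.216 (adjusted p = 0.103) without C57L/J and NOD/ShiLtJ. Adipoq passed with Lipe (0.559), Dgat2 (0.401), Pnpla2 (0.374) and Thrsp (0.287). When arrays with high thymocyte or squamous scores were left out, the relations of Adipoq with Dgat2, Pnpla2 and Thrsp no longer passed (adjusted p = 0.0965, 0.187 and 0.0939). Srebf1 and Insig1 had no probe set with a single symbol and were not analysed here.

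Other genes of the pathway were counted over 6 lists with 98 genes, of which 70 were measured and 54 passed the strain F test, read against the 46.5% of all probe sets. Elovl3, Plin1, Cidec, Cidea, Adrb3, Aqp7, Pparg, Lpl and Fabp4 also stand in the fat marker lists. Triglyceride assembly (11 of 12 measured) and lipolysis and lipid droplets (11 of 12) had the highest shares, with median ICCs of 0.377 and 0.444. Named are the genes with the highest and lowest ICC of each list. In assembly these were Acsl5, an acyl-CoA synthetase (adjusted p = 7.08e-11; 8.31 in NOD/ShiLtJ to 11.46 in BXH10/TyJ), Lpin1, a phosphatidate phosphatase (9.4e-10; 7.34 in RIIIS/J to 11.43 in AXB1/PgnJ), Mogat2 (0.0644) and Agpat1 (0.0158). In lipolysis they were G0s2, the inhibitor of the lipase encoded by Pnpla2 (6.66e-10; 6.41 in C58/J to 11.65 in BXA25/PgnJ), Plin2, a droplet coat protein (2.19e-09; 10.91 in AXB1/PgnJ to 12.67 in AXB24/PgnJ), Pnpla8 (0.0515) and Cidea (0.00531). C58/J was thus the lowest strain in both Dgat2 and G0s2, and AXB1/PgnJ in Lipe, Thrsp and Plin2.

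Of fatty acid synthesis and NADPH supply, 6 of 7 measured genes passed. Acss2, which makes acetyl-CoA from acetate, ran from 6.94 in NOD/ShiLtJ to 9.90 in AXB8/PgnJ, and Pcx, pyruvate carboxylase, from 8.04 in RIIIS/J to 10.69 in BTBR T<+> tf/J. Mid1ip1, the partner of Thrsp, passed at 0.0259, and the NADPH source Idh1 did not (adjusted p = 0.112). Elongation and desaturation counted 7 of 11. Hsd17b12, the ketoacyl reductase of elongation, was 6.42 in NON/ShiLtJ and 11.20 in AXB24/PgnJ, and Elovl3, a brown fat elongase, ran from 6.91 in BXD42/TyJ to 11.33 in BXH10/TyJ. The dim Elovl2 (adjusted p = 0.66) and Elovl4 (0.393) did not pass. Regulators counted 15 of 20, led by Ppara (lowest in AXB1/PgnJ, 6.66, and highest in BXD38/TyJ) and Mlxip (6.95 in RIIIS/J to 8.61 in C58/J). Insr (0.742) and Mbtps1 (0.137) did not pass. Uptake and storage counted 4 of 8: Lipa and Slc27a1 passed at 4.14e-06 and 4.27e-06, while Fabp4 (0.269) and Slc27a4 (0.0678) did not.

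The genes most like each member were sought among 11715 others by r over the 93 strain means. Nsdhl, a dehydrogenase of cholesterol synthesis, came first for Fasn (0.804), Acly (0.801) and Me1 (0.798), followed for Acly by Acss2 (0.723) and Tkt (0.668). Thrsp and Fasn shared Taldo1 (0.785 and 0.762) and Eno1b (0.748 and 0.773). For Scd1 the nearest were Dbi (0.748), Acsl5 (0.725) and Abcd3 (0.719), and for Elovl6 they were 4931406C07Rik (0.902), Cyb5b (0.876) and Abcd3 (0.871). For Acaca the highest was Aplp2 (0.515). Dgat2 was nearest to Miga2 (0.770), Plin5 (0.761) and Dgat1 (0.743). Lipe was also nearest to Miga2 (0.863), and then to Mcrip2 (0.858) and Pex19 (0.854), and Pnpla2 to Spout1 (0.789), Endog (0.782) and Mul1 (0.773). These values are descriptions, chosen as the highest of many.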

How the data were processed

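RNA of the aorta was measured on 188 arrays. Per the submitters' processing notes, GCOS and RMA made the values (versions not given in the sources used here). As deposited by the authors, the values are log2 expression values, 1 per probe set and array. Of 22416 probe sets 89 controls were left out, and 17783 carried 1 symbol, 284 several symbols, and 4260 were not listed in the annotation. RMA, as the procedure is usually run, equalises the distribution of probe intensities over arrays, so levels are relative to the other RNA of an array. Fits used limma 3.58.1 (R 4.3.3) on 22327 probe sets, with Benjamini-Hochberg adjustment over all. The parental fit had 93 residual degrees of freedom. The ICC came from one-way variance components. Correlations used scipy 1.17.1. The procedures were tested on simulated data. The 2 arrays of BXD32/TyJ, whose descriptions bear an unexplained suffix, were left out of tests, not of ranks and array ranges. A score is the mean centred level of a marker list without the 10 genes. All members were named, and of each list the 2 genes with the highest and the 2 with the lowest ICC. Members and lists were chosen with earlier results of these data known. Precision is limited by the few arrays of a strain, mostly 2. Alternatives covered array numbers, marker scores, arrays left out, normalisation, probe sets and moderation.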

Additional observations from a re-analysis of the deposited data

Results flagged for a closer look

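Of 30 combinations of a gene and a strain with 4 arrays, 3 had an array apart from the other arrays of its strain, where chance sets about 1 in 20 apart. Dgat2 in AXB19b/PgnJ was 11.79 on the lowest array, against 12.34 to 12.45 on the others. Dgat2 in BXD19/TyJ was 12.21 on the lowest array, against 12.43 to 12.45. Acaca in BXH4/TyJ was 5.97 on the highest array, against 5.22 to 5.29.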

How the results depend on the processing

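Over 755 alternatives, 689 kept their direction and side of the threshold or, for a count, stayed within 1.5 times. A further 54 lost a call or fell by more than 1.5 times in a count, and 12 gained a call or rose likewise. None of these reversed a called direction. No paired analysis was possible because replicate numbers follow accession order. Genes that passed in AXB/BXA fell from 4 to 2 with the block of array numbers as a covariate and to 0 without arrays of high thymocyte or squamous score, which by construction left 17 arrays. In BXD they fell from 8 to 3, with 23 arrays left. In BXH they fell from 3 to 1 without BXH19/TyJ, a setting that, like the omission of C57L/J and NOD/ShiLtJ, was chosen after seeing the data. Between A/J and C57BL/6J 1 gene passed with the fat scores as covariates, and the cause was not tested. The block as a covariate could not be fitted in BXD. Probe sets with a strain effect numbered 6466 without those arrays and 6852 over strains with consecutive array numbers, against 10375. Between C3H/HeJ and C57BL/6J they numbered 73 to 1123 with 1 parental array left out, against 278, and most without the third C57BL/6J array. With 2 arrays for most strains, signal near background (Acaca, Pnpla2) and near the top of the scale (Scd1) limits what can be ordered.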
